A study of Homo sapiens with 4 samples.

Results

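To examine the sterol synthesis enzymes in cells labeled as transfected with a miR-335 mimic, 8 genes were followed through 4 arrays. The genes were HMGCS1, IDI1, FDPS, FDFT1, SQLE, LSS, MSMO1 and DHCR7. They were taken as all probes carrying one of these gene names (MSMO1 may also be written SC4MOL), 9 probes in all, out of 34423 gene names on the array and 14837 with a tested probe. The set was chosen by measured differences between mimic and control on these same arrays, MSMO1 for its fall and the others as enzymes of the same pathway, so the differences of the 8 genes are given as a description, with no test.

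GIST-T1 is an established human line that was derived from a gastrointestinal stromal tumor (GIST). By the transfection field, the cells received either a miR-335 mimic, a synthetic double of the mature microRNA, or a commercial negative control RNA. Each was given at 100 pmol, and no untransfected cells were included. Total RNA was taken 48 h later, and 100 ng was labeled with a single dye and hybridized to Agilent expression arrays, 2 for the mimic and 2 for the control. The labels do not say that replicates came from separate cultures, so their spread may be technical, and the smallest two-sided p that an exact permutation test allows for 2 arrays per group is 0.333. All 4 arrays lay on 1 slide, the controls at positions 1 and 2 and the mimic arrays at positions 3 and 4, so position and group cannot be told apart.

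Cells build cholesterol from acetyl-CoA through mevalonate and then through isoprenoid units, squalene and lanosterol, and the last stretch strips methyl groups from the sterol ring and rearranges its double bonds. Transcription of these enzymes is classically driven as a block by SREBP2, a membrane-bound factor that is released when sterols run low and works together with the CCAAT-binding factor NF-Y and with SP1. MSMO1 encodes the oxidase that attacks the methyl groups on the fourth carbon of the ring. HMGCS1 makes HMG-CoA, IDI1 interconverts the isoprenoid units, FDPS joins them to farnesyl diphosphate, FDFT1 makes squalene, SQLE oxidizes it, LSS closes it to lanosterol, and DHCR7 carries out a final reduction to cholesterol.

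The microRNA sequences are shown because one line of the description of both mimic samples names miR-34a, whereas their titles, their transfection field and the treatment text name miR-335. The RefSeq mature sequences (GRCh38.p14) follow with the seed, bases 2 to 8, in capitals.
hsa-miR-335-5p: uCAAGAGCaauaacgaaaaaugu
hsa-miR-335-3p: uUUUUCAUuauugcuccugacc
hsa-miR-34a-5p: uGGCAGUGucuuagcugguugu
The 3 seeds differ. The 7-base matches to these seeds were present in 221, 618 and 220 of the 50599 probe sequences, in the order printed, and 0 of the 9 probes of the sterol enzymes held any of them. A probe covers a small stretch of its transcript, and whole transcripts were not searched. Of the genes that the study names as predicted miR-335 targets, ZMPSTE24 (log2 difference −0.86, limma adjusted p 0.0314) and EIF5A2 (−0.84, adjusted p 0.0351) were lower with the mimic, and MAT2B differed by −0.66 (adjusted p 0.0538). The study chose those genes on the same samples. Of 13 genes published as miR-34a targets 11 were tested, and 1, BCL2, was called lower (−0.45, adjusted p 0.0487), against 1.15% of all tested probes. Another of them, E2F3, differed by −0.32 (adjusted p 0.0580). PDGFRA differed by −0.08 (adjusted p 0.354). Which RNA the cells received was not tested beyond these values.

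Signals are given on the log2 scale after subtracting each array's own 75th percentile of processed intensity, so 0 is the level of that percentile and a difference of −1 is a halving. Of 20328 tested probes 532 differed at an adjusted p below 0.05 in limma. Replicate arrays of either group differed by a median of 0.06 in absolute value. Of the markers of the labeled cell line, KIT, ANO1, ETV1, PDGFRA and CD34 were all well above background. The epithelial, leukocyte, endothelial and hepatocyte markers CDH1, PTPRC, CD3E, PECAM1, ALB and APOB were not well above background on any array, EPCAM was tested but dim (−0.89, adjusted p 0.287), and CDH5 was well above background on 2 of the 4 arrays.

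MSMO1 stood about 1 log2 unit lower with the mimic, while the other 7 enzymes differed by between −0.16 and 0.11. The MSMO1 probe (chromosome 4, 166263190 to 166263249, plus strand, hg19) had normalized log2 signals of −1.56 and −1.57 on the mimic arrays and −0.61 and −0.56 on the control arrays. The groups lay much further apart than the replicates within them, whose gap was 0.01 for the mimic and 0.05 for the control. The difference was −0.98 ± 0.04 (SE), a level 49.4% lower with the mimic. The SE here and below is that of limma, which draws on the spread of all tested probes and not of 1 gene alone. Pairing each mimic array with each control array gave −1.01 to −0.95. In a bulk sample fewer cells with a transcript and less of it per cell cannot be told apart.

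MSMO1 was printed in 10 spots on each array, which repeat the measurement within a hybridization. On the mimic arrays 9 of the 10 spots passed the outlier flags, and their processed intensity ran from 55.3 to 74.7 (median 63.7) on replicate 1 and from 53.7 to 69.6 (median 60.1) on replicate 2. On the control arrays all 10 spots were usable, at 106.7 to 132.9 (median 117) and 111.1 to 139.0 (median 123.6). No mimic spot reached the dimmest control spot. Every usable spot was well above background, although MSMO1 was the dimmest of the 8 genes and 23.3% of tested probes had a lower mean signal. With another background correction (normexp), its difference was −0.54.

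**Figure D1:**
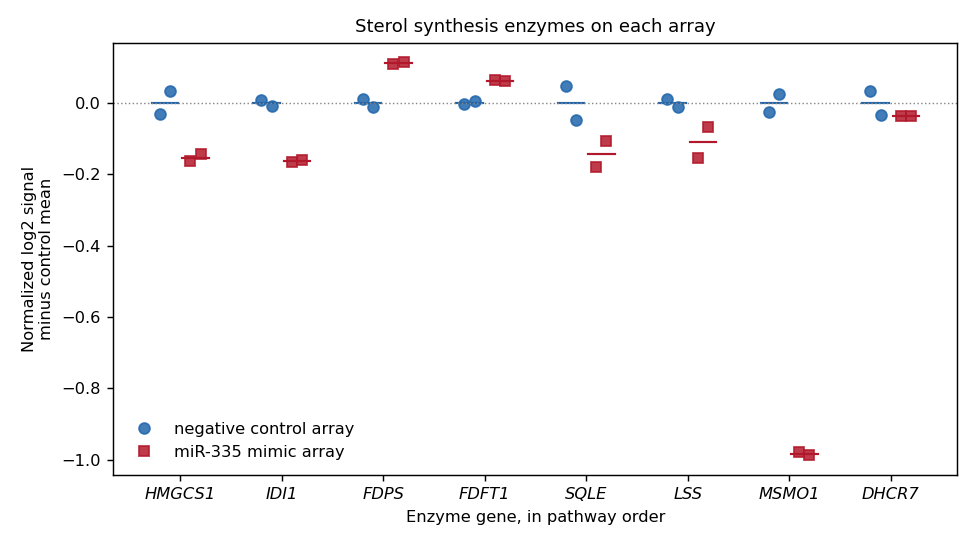
Normalized log2 signal of each enzyme gene on every array, minus the mean of the 2 control arrays (y axis), with genes in pathway order (x axis). Circles are control arrays, squares are mimic arrays and short lines are group means; the MSMO1 mimic mean lies 0.98 below the control mean, and the mimic means of the other genes lie between −0.16 and 0.11 relative to it.

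Upstream of squalene the enzymes moved little and in both directions. HMGCS1 (chromosome 5, 43290117 to 43290176, minus strand) had signals of 0.39 and 0.41 with the mimic and of 0.52 and 0.58 in the control, a difference of −0.15 ± 0.04 (SE). IDI1 (chromosome 10, 1086619 to 1086678, minus strand) had 1.74 and 1.75 with the mimic and 1.91 and 1.90 in the control, a difference of −0.16 ± 0.04. In both genes the 2 mimic arrays were below the 2 control arrays. FDPS (chromosome 1, 155290269 to 155290328, plus strand) ran the other way, with 4.58 on each mimic array against 4.48 and 4.46, a difference of 0.11 ± 0.04. FDFT1 (chromosome 8, 11696201 to 11696260, plus strand) gave 3.51 and 3.50 against 3.44 and 3.45, or 0.06 ± 0.04. The higher signals of FDPS and FDFT1 depended on the scaling, since scaling to the spiked-in control RNA turned them to −0.08 and −0.13.

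From squalene onward the set holds 4 genes, and those other than MSMO1 had small differences. SQLE, the epoxidase (chromosome 8, 126034443 to 126034502, plus strand), had 3.39 and 3.47 with the mimic and 3.62 and 3.53 in the control, a difference of −0.14 ± 0.06 (SE). LSS (chromosome 21, 47609299 to 47609358, minus strand) had 1.91 and 2.00 against 2.08 and 2.06, a difference of −0.11 ± 0.05. A second LSS probe (47608567 to 47608626), for another transcript variant, was not well above background on any array and has no usable level. DHCR7 (chromosome 11, 71145514 to 71145573, minus strand) had 4.59 on both mimic arrays and 4.66 and 4.59 in the control, a difference of −0.04 ± 0.04, with the nearest mimic and control arrays only −0.0029 apart. Differences of this size moved with single arrays. Without control replicate 1 SQLE was at −0.0957 and DHCR7 at −0.0036, without control replicate 2 they were at −0.19 and −0.07, and LSS was at −0.07 without mimic replicate 1 and at −0.15 without mimic replicate 2.

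Of the 8 tested probes of the set, 6 had both mimic arrays below both control arrays, which 32.5% of all tested probes also did, and 2 had both above, as did 27.1%. A difference of 0.25 or less in either direction held for 7 of the 8 and for 81.6% of all tested probes. MSMO1 was the 1 gene of 8 that was over 1.5-fold lower, against 1.47% of all tested probes. Because these values chose the set, nothing is read from the counts. The median difference over the 8 genes was −0.13, and over all tested probes it was −0.01. Among all tested probes 75 (0.369%) fell further than MSMO1.

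**Figure D2:**
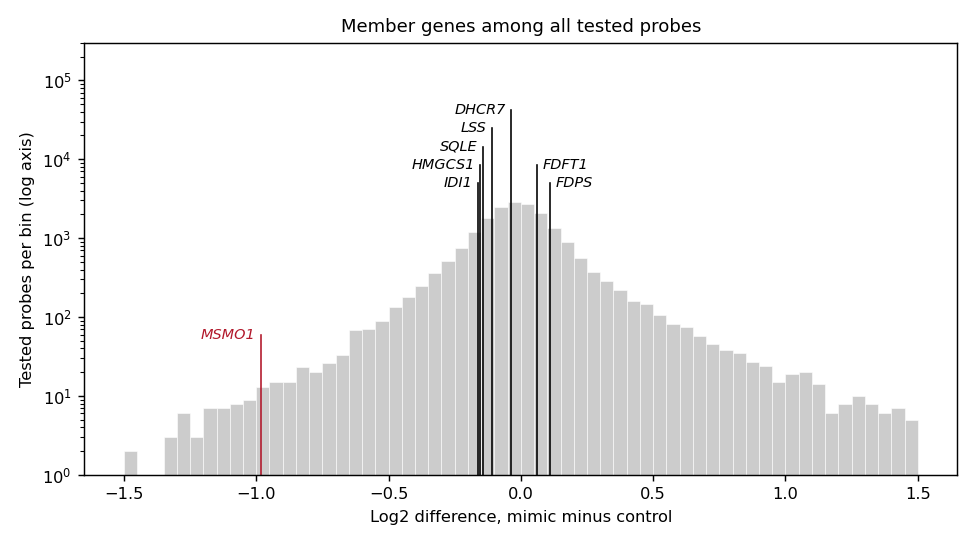
Number of tested probes (y axis, log scale) by log2 difference, mimic minus control (x axis), in bins of 0.05; 23 probes below −1.5 and 50 above 1.5 are not drawn. Vertical lines mark the 8 enzyme genes, with their height chosen for legibility; MSMO1 at −0.98 lies in the lower tail and the other 7 lie in the central peak.

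The genes next to MSMO1 on chromosome 4 in the RefSeq annotation were examined as a check of the region. KLHL2 had signals of 0.88 and 0.86 with the mimic and 0.84 and 0.64 in the control, a difference of 0.13 (limma adjusted p 0.389). CPE differed by −0.02 (adjusted p 0.760), and its groups overlapped. Neither neighbor passed the test.

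Genes with a pattern most like that of MSMO1 were sought by the Euclidean distance between mean-centered log2 signals over the 4 arrays, among 14250 other genes well above background on all of them. The 5 nearest were LOC643454 (distance 0.0852, difference −0.91), OTUD1, a deubiquitinase (0.0880, −1.05), HAND1, a developmental transcription factor (0.0908, −0.92), the small nucleolar RNA gene SNORD3B-1 (0.0938, −1.05) and AP3S1, a subunit of an adaptor complex for vesicle transport (0.127, −0.89). None of the 5 belongs to the sterol lists. With 4 arrays in 2 groups, this likeness mostly states that the size of the fall was similar.

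Whether the rest of sterol metabolism moved was asked with 7 lists of 65 other genes, written from general knowledge, of which 59 had a tested probe (the brightest probe was used for each gene). In limma 0 of the 59 passed the adjusted threshold as lower and 0 as higher, against 1.15% and 1.47% of all tested probes. At an unadjusted p below 0.05, 13 (22.0%) were lower and 4 (6.78%) higher, against 13.7% and 11.7% of all tested probes. Their differences ran from −0.39 to 0.38 with a median of −0.01, the same as over all probes. The count of 0 depended on how the spread was estimated and on the scaling. When limma let the spread vary with intensity, 9 of the 59 were called lower and 2 higher. In that setting 3083 of all 20328 tested probes were called in either direction. When arrays were scaled to the spiked-in RNA, 34 of the 59 were called lower and 0 higher. Calls then rose across the whole array, to 9642 of the 20328 probes in either direction.

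**Figure D3:**
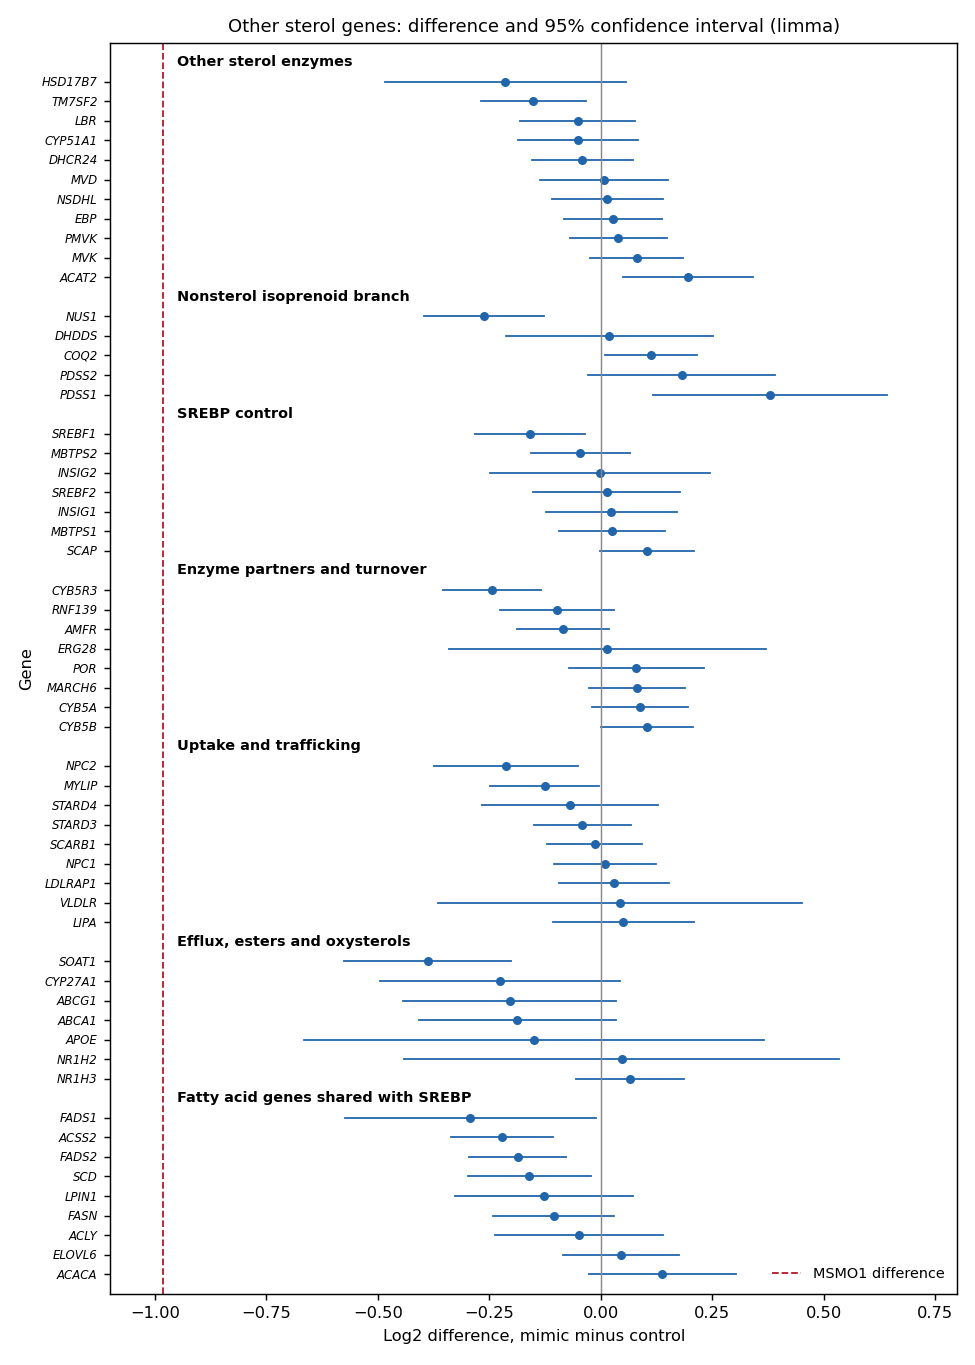
Log2 difference, mimic minus control (x axis), for 56 of the 59 tested other sterol genes (y axis), grouped by list. Points are differences and bars are 95% confidence intervals from limma, and the dashed line gives the MSMO1 difference of −0.98 for scale; the points run from −0.39 (SOAT1) to 0.38 (PDSS1).

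The remaining enzymes of the pathway differed in both directions. Of 14 such genes 12 were tested (IDI2 and SC5D were not), 6 below 0 and 6 above, with a median difference of −0.02. HSD17B7, which works with MSMO1 in removing the ring methyl groups, differed by −0.21 on its brightest probe (adjusted p 0.266). Its other tested probes differed by −0.09 and −0.01. At the other end were ACAT2, the thiolase that starts the pathway, at 0.20 (adjusted p 0.139), and MVK, the mevalonate kinase, at 0.08 (adjusted p 0.272).

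Because MSMO1 acts inside a short series of reactions, its direct neighbors in that series were also looked up after their values had been seen. CYP51A1, which removes the first methyl group from lanosterol, differed by −0.05 (95% confidence interval −0.19 to 0.08, adjusted p 0.539). TM7SF2, a reductase of the ring, differed by −0.15 (−0.27 to −0.03, adjusted p 0.145). LBR, another reductase of the ring with a brighter probe, differed by −0.05 (−0.18 to 0.08, adjusted p 0.519). NSDHL, the dehydrogenase that follows MSMO1, differed by 0.01 (−0.11 to 0.14, adjusted p 0.849), and ERG28, a scaffold for this complex, by 0.01 (−0.34 to 0.37, adjusted p 0.949).

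The electron carriers and turnover factors of the sterol enzymes were tested for all 9 listed genes, with a median of 0.08. CYB5R3, the reductase that feeds electrons to cytochrome b5, had signals of 6.90 and 6.91 with the mimic and 7.13 and 7.17 in the control, a difference of −0.24 (adjusted p 0.0756). CYB5B, a cytochrome b5 of the mitochondrial outer membrane, differed by 0.10 (adjusted p 0.194). RNF139, a ubiquitin ligase of the endoplasmic reticulum, differed by −0.10 (adjusted p 0.277).

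The genes that control the pathway's transcription showed small differences. All 7 were tested, with a median of 0.01. SREBF2, which encodes SREBP2, had signals of 2.00 and 2.10 with the mimic and 2.07 and 2.00 in the control, and the groups overlapped (difference 0.01, adjusted p 0.897). INSIG1, a sterol-sensing retention protein that is itself an SREBP target, differed by 0.02 (adjusted p 0.796). SREBF1, the factor more tied to fatty acid synthesis, differed by −0.16 on its brightest probe (adjusted p 0.145). A second tested SREBF1 probe differed by −0.24 (adjusted p 0.0720). SCAP, the escort protein of SREBP, differed by 0.10 (adjusted p 0.199), and the proteases MBTPS1 and MBTPS2 that release it by 0.02 (adjusted p 0.731) and −0.05 (adjusted p 0.507).

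Uptake and trafficking genes had a median difference of −0.03 over the 10 tested of 11. NPC2, which moves cholesterol out of lysosomes, had signals of 4.36 and 4.39 with the mimic and 4.53 and 4.64 in the control, a difference of −0.21 (adjusted p 0.141), whereas the lysosomal lipase gene LIPA (0.05, adjusted p 0.604) and VLDLR (0.04, adjusted p 0.870) had overlapping groups.

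The branch to nonsterol isoprenoids held the largest rise. PDSS1, which makes the tail of coenzyme Q, had signals of 0.48 and 0.56 with the mimic and 0.04 and 0.25 in the control, a difference of 0.38 ± 0.09 (SE) that did not pass the threshold (adjusted p 0.126). A second tested PDSS1 probe rose less, by 0.18 (adjusted p 0.312). PDSS2, the partner subunit of PDSS1, differed by 0.18 (adjusted p 0.238), and by −0.01 on a second tested probe. NUS1, a subunit of the enzyme for dolichol synthesis, differed by −0.26 on its brightest probe (adjusted p 0.0882). Its other tested probes did not all fall, with differences of −0.28, −0.02, −0.02 and 0.05. Of the 6 genes 5 were tested (GGPS1 was not), with a median of 0.11.

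Efflux, ester and oxysterol genes held the largest fall among the 59. SOAT1, which esterifies cholesterol for storage, had signals of −0.42 and −0.35 with the mimic and 0.07 and −0.06 in the control. The difference was −0.39 ± 0.06 (SE, adjusted p 0.0825). CYP27A1, a sterol hydroxylase, differed by −0.23 (adjusted p 0.248). The liver X receptor genes NR1H3 and NR1H2 differed by 0.07 (adjusted p 0.398) and 0.05 (adjusted p 0.878). Of the 9 genes 7 were tested (CH25H and CYP7B1 were not), with a median of −0.19.

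Fatty acid genes that share SREBP control were tested for all 9 listed genes, with a median of −0.13. Those with the largest falls were FADS1, a desaturase (−0.29, adjusted p 0.187), and ACSS2, which makes acetyl-CoA from acetate (−0.22, adjusted p 0.0881). At the other end, by their brightest probes, were ACACA, the carboxylase that commits acetyl-CoA to fatty acids (0.14, adjusted p 0.249), and ELOVL6, an elongase (0.05, adjusted p 0.571). A second tested ACACA probe went the other way, at −0.23 (adjusted p 0.179), so the direction of ACACA is not settled. Of these 9 genes 4 were lower at an unadjusted p below 0.05 (13.7% of all tested probes), and 0 passed the adjusted threshold.

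Promoter sequences are shown because the enzymes are textbook examples of shared control. RefSeq windows (GRCh38.p14, 250 bases before to 50 after a start) were read for 6 of the 8 genes, 10 windows in all, and FDFT1 and SQLE were not analysed here. The box CCAAT, searched on both strands, occurred in at least 1 window of all 6 genes (7 of 10 windows) and in 34.6% of 35116 windows over all genes. MSMO1 held 4 copies in a window, FDPS 3, IDI1 up to 3, HMGCS1 and DHCR7 up to 2, and LSS 1. Of all windows 0.991% held 4 or more. GGGCGG, the core bound by SP1, occurred in windows of all 6 genes (9 of 10 windows) and in 45.0% of all windows. TCACNCCAC and CACCCCAC, written forms of the sterol element, occurred in 0 of the 10 windows and in 1.13% and 2.79% of all windows. Only these strings were searched, so the count does not show that a window lacks another form of the element. The 250 bases upstream of 3 starts follow, 5′ to 3′, with CCAAT on either strand in capitals (ATTGG is its reverse complement). They belong to the gene of the set with the largest fall, its first enzyme and the gene with the highest rise.
MSMO1, chr4:165327419-165327668, plus strand: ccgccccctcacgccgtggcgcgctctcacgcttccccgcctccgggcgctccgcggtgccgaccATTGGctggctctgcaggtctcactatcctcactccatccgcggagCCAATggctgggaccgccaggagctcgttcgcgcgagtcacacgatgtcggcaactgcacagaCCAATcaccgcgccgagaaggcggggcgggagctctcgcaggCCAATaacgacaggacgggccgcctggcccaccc
HMGCS1, chr5:43313413-43313662, minus strand: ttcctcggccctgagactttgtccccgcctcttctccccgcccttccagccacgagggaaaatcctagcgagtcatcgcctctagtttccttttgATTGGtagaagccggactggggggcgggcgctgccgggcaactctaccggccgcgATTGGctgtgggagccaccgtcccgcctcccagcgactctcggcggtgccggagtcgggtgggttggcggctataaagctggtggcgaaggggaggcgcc
FDPS, chr1:155308616-155308865, plus strand: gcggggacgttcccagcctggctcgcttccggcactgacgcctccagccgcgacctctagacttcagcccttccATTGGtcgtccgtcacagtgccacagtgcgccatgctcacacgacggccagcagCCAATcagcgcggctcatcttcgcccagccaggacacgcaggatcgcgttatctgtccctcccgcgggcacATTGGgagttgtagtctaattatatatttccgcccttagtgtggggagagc
A match describes these letters and not a bound factor.

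**Figure D4:**
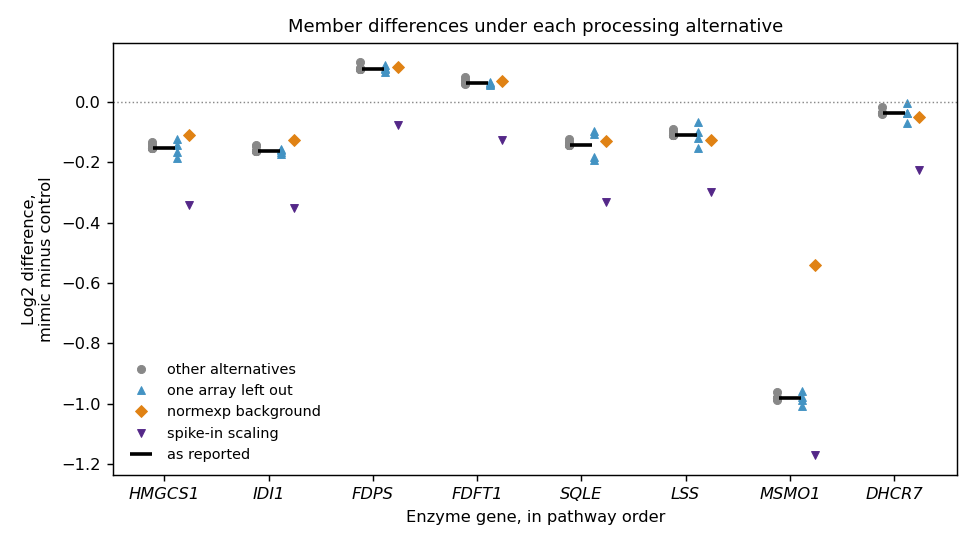
Log2 difference, mimic minus control (y axis), of each enzyme gene (x axis, pathway order) as reported (black bars) and under 15 processing alternatives (symbols). MSMO1 stays lowest throughout, from −1.17 with spike-in scaling to −0.54 with normexp, and spike-in scaling places all 8 genes below 0. Alternatives of the probe filter, spread estimate and replicate block left these differences unchanged.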

How the data were processed

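Total RNA of GIST-T1 cells was profiled on 4 Agilent 1-color arrays, 2 per group, grouped by the transfection field of the labels. The authors deposited the spot intensity output of Feature Extraction (10.7 per the submitters' processing notes, 10.7.3.1 per the file headers), in which the processed intensity is background-subtracted and detrended within the array but not normalized between arrays. The deposited value table of the series holds the same intensity, rounded, and served as an alternative.

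Spots flagged as non-uniform or population outliers were left out (356 to 395 per array), and log2 values of repeat spots of a probe were averaged. Each array's 75th percentile was subtracted. A probe was taken as well above background where the software's flag was set for 0.5 or more of its usable spots. Probes well above background on both arrays of 1 group or both, and measured on all 4 arrays, were tested, 20328 in all. Between 40.3% and 41.9% of probes were well above background per array, and the number of arrays limits the precision. The groups were compared with limma 3.58.1 (R 4.3.3) without covariates, and p-values were adjusted over all tested probes (Benjamini-Hochberg). Of the 73 gene names used, 73 were symbols or synonyms in RefSeq (GRCh38.p14); probe coordinates are those of the files (hg19). Whether probes lie in untranslated regions was not analysed here. Figures were drawn with matplotlib 3.10.9 (Python 3.11.15).

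The members and the gene lists were chosen with earlier results of these data known. Named genes were all member probes; INSIG1, SREBF2, SREBF1 and other key genes of the pathway; per list, called genes and the 2 largest falls and rises; and the 5 genes most like MSMO1. Some genes that this rule names are counted in the lists but not reported here. Alternatives covered scaling, background correction, probe filters, the spread estimate, a replicate block and leaving out each array.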

Additional observations from a re-analysis of the deposited data

How the results depend on the processing

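The direction of the MSMO1 difference held under all 15 alternatives (−1.17 to −0.54). Its size fell most with normexp (−0.54), which adds an offset of 50 intensity units to a probe that read 61.7 to 123 units. Alternatives of the probe filter, the spread estimate and the replicate block cannot change a probe's difference. Leaving out an array could not reverse MSMO1 either, as both mimic arrays lay below both control arrays. MSMO1 was chosen for its fall, so nothing is read from the direction. Spike-in scaling turned FDPS to −0.077 and FDFT1 to −0.13, moved the median of all tested probes to −0.20 and the median of the 8 enzymes from −0.13 to −0.31, called 34 other sterol genes lower, and raised the calls over all probes from 532 to 9642. Of the other sterol genes, 0 were called in either direction as reported (13 lower and 4 higher unadjusted). With an intensity trend 9 were called lower and 2 higher (3083 calls over all probes). With normexp 5 were called lower and 1 higher (1550 over all probes). With the filter on all 4 arrays 1 was called lower (588 over the 19352 probes then tested). Without a filter on dim probes there were 0 calls over all probes (3627 at an unadjusted p below 0.05). The cause was not tested.

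Leaving out one array in turn gave 0 to 8 calls over all probes, 0 other sterol genes in either direction, and medians of the 8 enzymes from −0.159 to −0.0867; the 8 calls came without mimic replicate 2, and the lone array of a group was assumed to vary like the other group. MSMO1 then ran from −1.01 to −0.96. With the replicate number as a block, limma gave 0 calls over all probes (4400 unadjusted) and 0 other sterol genes in either direction. The sample titles give mimic and control arrays no shared number, so this pairing followed listing order only. Replicate deviations correlated by 0.03 across probes, which cannot show whether cultures were paired. A block for slide or scan could not be fitted, as all arrays shared both.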
